A study of Jatropha curcas with 4 samples.

Results

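The transcripts described here were abundant in non-stressed (NS) roots of Jatropha curcas, an oilseed shrub, and left the list of most abundant transcripts in roots under waterlogging stress (WS). Members were the gene models among the 300 highest by mean normalized CPM of the NS libraries but not among the 300 highest by mean normalized CPM of the WS libraries. CPM are counts scaled to library size, here with a trimmed-mean (TMM) correction. The rule gave 147 gene models of 17410 in the normalized table and of 57437 models counted, after 2 models that also met it were left out. A further 151 models were among the 300 highest of both treatments, and 149 were among the 300 highest of WS only.

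RNA-seq was performed on poly(A) mRNA of whole roots from plants of 30 days at the six-leaf stage. For WS, potted plants stood for 24 h with water 3 cm above the soil, and NS plants stood for the same 24 h in a container without water. No genotype, transgene or chemical agent differed between the treatments as far as the labels state. Each treatment had 2 libraries, which the submitters describe as independent biological replicates. The design text speaks of mRNA pools, without the number of plants behind each library.

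Waterlogging replaces the air in soil pores with water, in which oxygen moves slowly, and root cells then rely more on glycolysis and fermentation for ATP. A root under such stress also readjusts which mRNAs it makes, keeps and translates, and costly processes such as growth and wall building are commonly reduced. The most abundant mRNAs of a tissue are of interest because a small set of genes accounts for a large part of the mRNA pool.

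Library depth ranged from 1204502 counted reads in NS replicate 2 to 6110438 in NS replicate 1, with both WS libraries in between. One read was worth 0.153 to 0.756 CPM, so the values of the members rested on many reads in NS, the lowest being 1024 reads in NS replicate 1 and 343 in NS replicate 2. As a check on green tissue in the root samples, the 7 photosynthesis models among 665 annotated rows of the study's expression table summed to 76.9 and 65.0 CPM in NS and to 68.6 and 37.5 CPM in WS. Of these 7 models, 0, 2, 0 and 2 were listed at 0 in NS replicates 1 and 2 and WS replicates 1 and 2. None of the 7 passed the quasi-likelihood test and 0 had an unadjusted p under 0.05. Other rows of that table were not used, so the check covers only these 7 photosynthesis models. No marker of a root cell type was paired with a gene model in the tables used here, so the cellular make-up of the roots was not checked. In bulk RNA, fewer cells of a type and less RNA per cell cannot be told apart.

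The label of the set, abundant only in non-stressed roots, held to unequal degrees. The 300th place stood at 401 CPM in NS and at 517 CPM in WS. In 35 members the WS mean was still at or above the NS value of 401 CPM, while in 112 it was below. Conversely, 70 members had an NS mean below 517 CPM, so that an unchanged value would not have placed them in the WS list. In 6 members the WS mean was at or above the NS mean. When each library was ranked by itself, 117 and 130 members were among the 300 highest of NS replicates 1 and 2, and 9 and 20 were among the 300 highest of WS replicates 1 and 2. A core of 77 members was among the 300 highest in both NS libraries and in neither WS library, with a median WS mean of 27.8% of the NS mean. The set thus holds transcripts that fell steeply beside transcripts that kept their mean CPM while other transcripts moved above them.

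**Figure D1:**
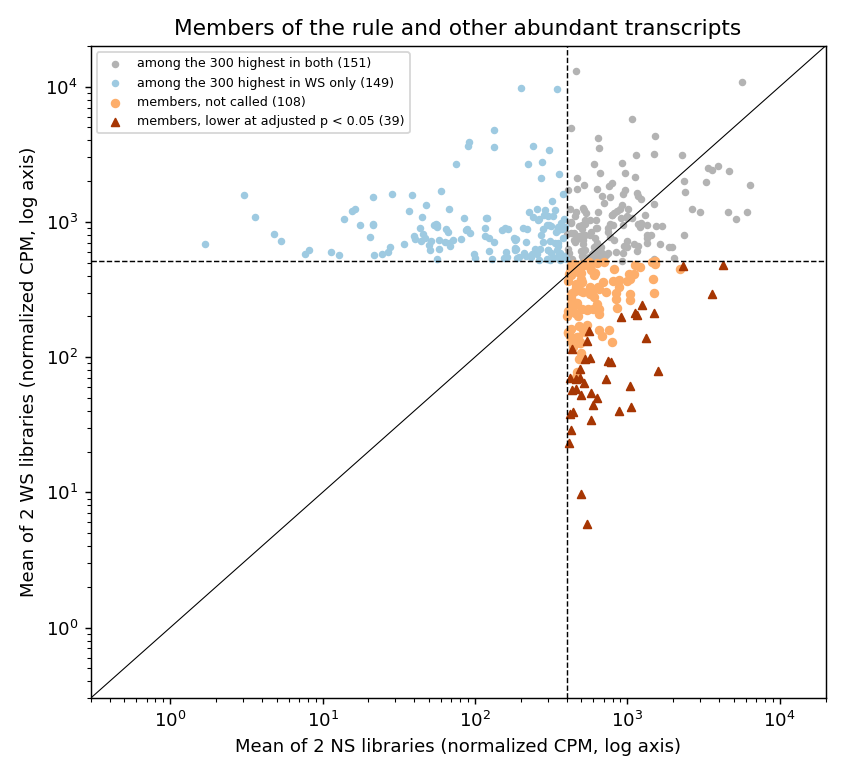
Mean normalized CPM of the NS libraries (x axis, log scale) against the mean of the WS libraries (y axis, log scale) for 147 members and for the other models among the 300 highest of either treatment. Dashed lines mark the 300th place, 401 CPM in NS and 517 CPM in WS, the solid line marks equal values, and 39 members drawn as triangles passed the quasi-likelihood test. The members fill the lower right field by construction.

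Over the members, the WS mean ranged from 1.07% to 112% of the NS mean, with a median of 35.2% and quartiles of 19.6% and 58.5%. The WS mean was below 12.5% of the NS mean in 22 members, from 12.5% to 25% in 25, from 25% to 50% in 49, from 50% to 100% in 45, and at or above 100% in 6. In edgeR's quasi-likelihood test with Benjamini-Hochberg adjustment, 39 members were lower in WS at an adjusted p under 0.05 and 0 were higher, beside backgrounds of 1.91% of all tested models lower and 2.45% higher. The rule used this same contrast, so these counts describe the members and support nothing. The log2 fold changes of the 39 ranged from -1.85 to -6.52 with a median of -3.08. All of the 22 members below 12.5% were among them, as were 15 of the 25 between 12.5% and 25% and 2 of the 49 between 25% and 50%. Both NS libraries stood above both WS libraries in 114 members, where this order was seen in 26.8% of all tested models. The reverse order was seen in 1 member, beside 25.7% of all tested models, and the treatments overlapped in 32. The median log2 fold change of the members was -1.51 (-2.22 without WS replicate 2), and that of all tested models was 0.01. DESeq2 called 60 members lower (background 5.08%) and edgeR's likelihood ratio test 57 (background 6.25%), and both included all 39. Leaving out a single library changed the count: 0 members were called without NS replicate 1 and 0 without NS replicate 2 (background 0% in both), but 63 when WS replicate 1 was dropped (background 3.25%) and 100 when WS replicate 2 was (background 7.44%). Of the 39, the fold change moved by more than 1.5 times in 3, 1, 11 and 18 members when NS replicate 1, NS replicate 2, WS replicate 1 and WS replicate 2 were dropped in turn.

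Reads of the members made up 11.2% and 11.5% of all counted reads in the NS libraries and 2.85% and 4.10% in the WS libraries. The means were 11.4% ± 0.254 in NS and 3.47% ± 0.882 in WS (SD, n = 2). The 10 members with the highest NS mean alone took 2.33% of the reads in NS and 0.341% in WS. The 151 models abundant in both treatments took similar shares, 18.4% in NS and 18.9% in WS, and the 149 models of the WS list only went from 2.81% to 15.4%. The 300 highest models of each library together took 30.4% in NS and 35.4% in WS. The rule fixes the fall in the share of the members and the rise in that of the WS list, so these values are descriptions.

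The 15 members with the highest NS mean all had both NS libraries above both WS libraries (26.8% of all tested models). Of the 15, 8 passed the test, beside 1.91% of all tested models lower. The rule used the same values, so both counts are descriptions. Jcr4S00939.10 headed the list, at 6310 and 2204 CPM in NS and 336 and 628 CPM in WS. Both NS libraries were far above both WS libraries, although they differed from each other by more than the WS libraries did. Its log2 fold change was -3.14 (SE 0.62, edgeR quasi-likelihood adjusted p = 0.0245), and -2.22 without NS replicate 1. With every library thinned to equal depth its adjusted p was 0.0578. The model lies at 2623 to 3157 on the plus strand of scaffold Jcr4S00939 (genome release 4.5) and has 2 coding exons that sum to 336 bp.

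Jcr4S03661.30, a minus-strand model of 2 coding exons at 9869 to 10780 of its scaffold, was next, at 4087 and 3080 CPM in NS and 119 and 465 CPM in WS. The WS libraries were both low but unequal. Its log2 fold change was -3.62 (SE 0.67, adjusted p = 0.0191 in edgeR's quasi-likelihood test), and it was -2.89 without WS replicate 1 and -4.93 without WS replicate 2. Both models are short, and per kb of coding length they ranked first and second among the members in NS, at 12670 and 8017 CPM per kb, where the median member had 431 CPM per kb.

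Jcr4S00126.110, a single-exon model at 43243 to 44034 on the minus strand with a coding length of 792 bp, had 1700 and 1505 CPM in NS and 72.9 and 85.9 CPM in WS. Replicates of each treatment lay close together and the treatments were far apart. The log2 fold change was -4.34 (SE 0.47, edgeR quasi-likelihood adjusted p = 0.00306). Jcr4S02120.40, with 11 coding exons at 10467 to 14858 on the minus strand, had 2165 and 2495 CPM in NS and 505 and 446 CPM in WS. It fell by less, with a log2 fold change of -2.29 (SE 0.43, edgeR quasi-likelihood adjusted p = 0.0197), but also with close replicates. Jcr4S01681.30 had 1742 and 913 CPM in NS and 147 and 130 CPM in WS (log2 fold change -3.26, edgeR quasi-likelihood adjusted p = 0.00891), so its NS libraries were the less alike. Jcr4S02803.20 had 1001 and 1509 CPM in NS and 225 and 263 CPM in WS (edgeR quasi-likelihood adjusted p = 0.0208). Both treatments were tight relative to the gap between them.

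Jcr4S00576.30, a long model of 24 coding exons, had 1231 and 1775 CPM in NS and 85.1 and 341 CPM in WS. WS replicate 2 stood well above WS replicate 1, and the adjusted p of edgeR's quasi-likelihood test was 0.0459, or 0.0873 at equal depth. Without 1 WS library its log2 fold change went from -2.82 to -2.10 (WS replicate 1 left out) or to -4.17 (WS replicate 2 left out). Jcr4S00425.130 had 1391 and 910 CPM in NS and 129 and 281 CPM in WS, with an adjusted p of 0.032 in edgeR's quasi-likelihood test and 0.0604 at equal depth. Its log2 fold change of -2.49 became -3.18 without WS replicate 2.

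The other 7 of the 15 did not pass the test. Jcr4S01355.50 had 2273 and 2170 CPM in NS and 154 and 746 CPM in WS (edgeR quasi-likelihood adjusted p = 0.0964, DESeq2 adjusted p = 0.0129). Its NS libraries were nearly equal and its WS libraries far apart. Jcr4S00685.50 had 1500 and 1543 CPM in NS and 527 and 503 CPM in WS (adjusted p = 0.0696), and Jcr4S03304.50 had 1405 and 1532 CPM in NS and 505 and 257 CPM in WS (adjusted p = 0.0557, both by edgeR's quasi-likelihood test). In both of these the treatments did not overlap, and only Jcr4S03304.50 had unequal WS libraries. Jcr4S00117.50 (1059 and 1996 CPM in NS, 132 and 847 in WS), Jcr4S00112.120 (1048 and 1956 CPM in NS, 65.2 and 529 in WS), Jcr4S09885.10 (1396 and 1519 CPM in NS, 311 and 692 in WS) and Jcr4S01824.20 (940 and 1470 CPM in NS, 256 and 670 in WS) had adjusted p-values of 0.27, 0.155, 0.121 and 0.197. In all 4 of them WS replicate 2 was the higher WS library.

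**Figure D2:**
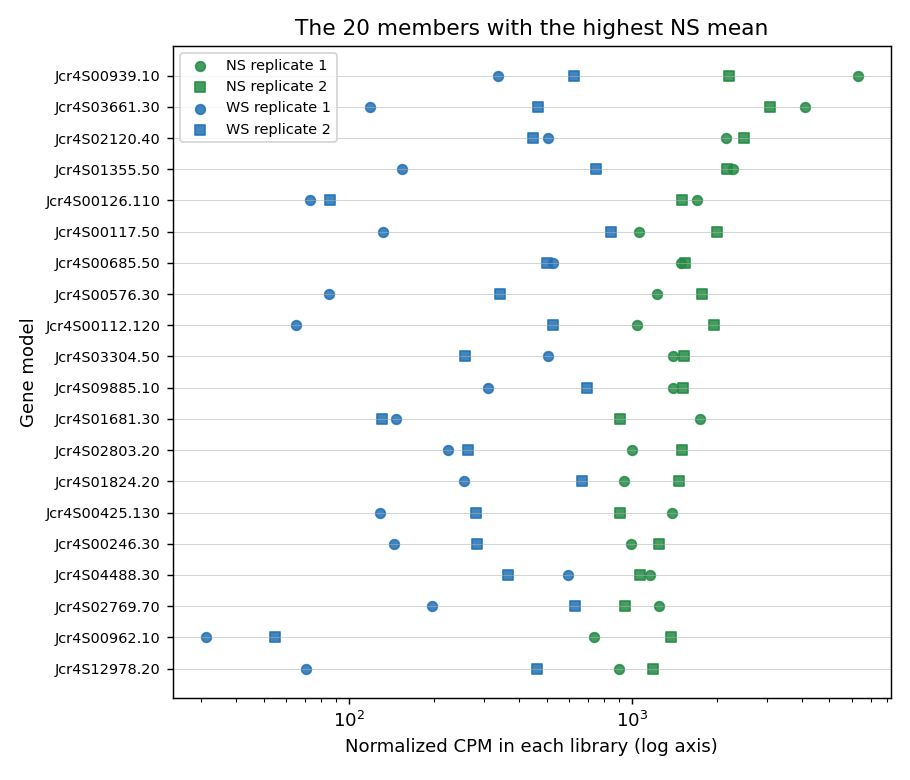
Normalized CPM (x axis, log scale) of the 20 members with the highest NS mean (y axis, one model per row), with 1 symbol per library, green for NS and blue for WS, circles for replicate 1 and squares for replicate 2. In every row both NS symbols lie to the right of both WS symbols, an order seen in 26.8% of all tested models. In Jcr4S00112.120 the WS libraries span 65.2 to 529 CPM.

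The lowest WS levels were reached by members of moderate NS abundance. Jcr4S08016.20, a model of 2 coding exons at 3590 to 4174 on the minus strand of scaffold Jcr4S08016, had 541 and 551 CPM in NS and 6.65 and 5.05 CPM in WS, the latter from 25 and 12 reads. The NS mean was 93.3-fold the WS mean, and the log2 fold change was -6.52 (SE 0.54, edgeR quasi-likelihood adjusted p = 0.00257). It ranked 12481 among the WS means. Jcr4S00526.10, with 8 coding exons at 2855 to 5476 on the minus strand, had 395 and 597 CPM in NS and 10.1 and 9.26 CPM in WS, a log2 fold change of -5.67 (SE 0.53, edgeR quasi-likelihood adjusted p = 0.00258). In these models both WS libraries agreed within a small range and neither held more than a trace of the NS level.

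Next in this order were Jcr4S00962.10, noted as a partial model, with 737 and 1375 CPM in NS and 31.1 and 54.7 CPM in WS, and Jcr4S04538.20, with 18 coding exons, 1104 and 654 CPM in NS and 30.9 and 48.4 CPM in WS. Jcr4S00126.110, described above, had the fifth lowest ratio. Jcr4S03901.10 had 490 and 335 CPM in NS and 20.5 and 26.1 CPM in WS. Jcr4S02762.70 had 961 and 1116 CPM in NS and 42.6 and 79.1 CPM in WS, and Jcr4S00340.130 had 534 and 616 CPM in NS and 32.5 and 36.2 CPM in WS. The 8 members with the lowest ratios all passed the test, at edgeR quasi-likelihood adjusted p-values from 0.00257 to 0.00471, and none overlapped between treatments. Of all tested models, 1.91% were lower by this test and 26.8% had both NS libraries above both WS libraries. These 8 were picked by their ratio in the same libraries, so both results are descriptions.

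At the other end, some members left the WS list with their mean CPM nearly the same, although the WS libraries of some were far apart. Jcr4S02234.70 had 442 and 417 CPM in NS and 471 and 444 CPM in WS, and was the one member with both WS libraries above both NS libraries. Jcr4S01890.10, a partial model, had 464 and 427 CPM in NS and 535 and 437 CPM in WS. Jcr4S00653.20 had 466 and 442 CPM in NS and 429 and 509 CPM in WS, and Jcr4S00514.100 had 453 and 417 CPM in NS and 571 and 343 CPM in WS. The highest ratio, 112%, belonged to Jcr4S01168.30, with 321 and 540 CPM in NS and 762 and 198 CPM in WS, whose WS libraries lay on either side of its NS libraries. Jcr4S02146.10, the member with the most coding exons (38), was also level, at 383 and 459 CPM in NS and 454 and 386 CPM in WS.

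Members just inside the NS limit were Jcr4S04084.30 at rank 299 (371 and 436 CPM in NS, 217 and 189 in WS), Jcr4S01398.20 at rank 296 (348 and 466 CPM in NS, 355 and 376 in WS) and Jcr4S00374.70 at rank 294 (466 and 352 CPM in NS, 66.8 and 234 in WS). Just outside it were Jcr4S06525.20 at rank 301 (233 and 569 CPM in NS, 27.4 and 136 in WS) and Jcr4S00739.60 at rank 302 (435 and 367 CPM in NS, 83.3 and 338 in WS). Their NS means were alike on both sides of the limit. At the WS limit, Jcr4S00685.50 (rank 303), Jcr4S08787.20 (rank 310, 952 and 455 CPM in NS, 652 and 363 in WS) and Jcr4S01222.50 (rank 313, 772 and 346 CPM in NS, 661 and 351 in WS) were inside. Jcr4S00775.10 (rank 300, 858 and 987 CPM in NS, 531 and 504 in WS) and Jcr4S00832.70 (rank 296, 539 and 480 CPM in NS, 409 and 642 in WS) were outside. Jcr4S00685.50 and Jcr4S00775.10 show how near the limit runs, as their WS means were 515 and 517 CPM.

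The rule used the mean of the WS libraries and not how it was divided between them. WS replicate 2 was above WS replicate 1 in 104 members and below it in 43. By 2-fold or more, replicate 2 was the higher in 67 members and replicate 1 in 7, and by 4-fold or more these counts were 22 and 2. The median member stood at 21.8% of its NS mean in WS replicate 1 and at 42.3% in WS replicate 2. The median log2 ratio of WS replicate 1 to WS replicate 2 was -0.86 over the members, -0.04 over the models abundant in both treatments, 0.18 over the WS list only and 0.01 over all tested models. WS libraries differed by 2-fold or more on the log2(CPM + 1) scale in 50.3% of members, 25.2% of the models abundant in both, 26.2% of the WS list only and 32.8% of all tested models. The NS libraries differed that much in 8.16% of members, 3.31% of the models abundant in both, 19.5% of the WS list only and 33.9% of all tested models. Most members were thus lower in WS replicate 1 than in WS replicate 2.

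**Figure D3:**
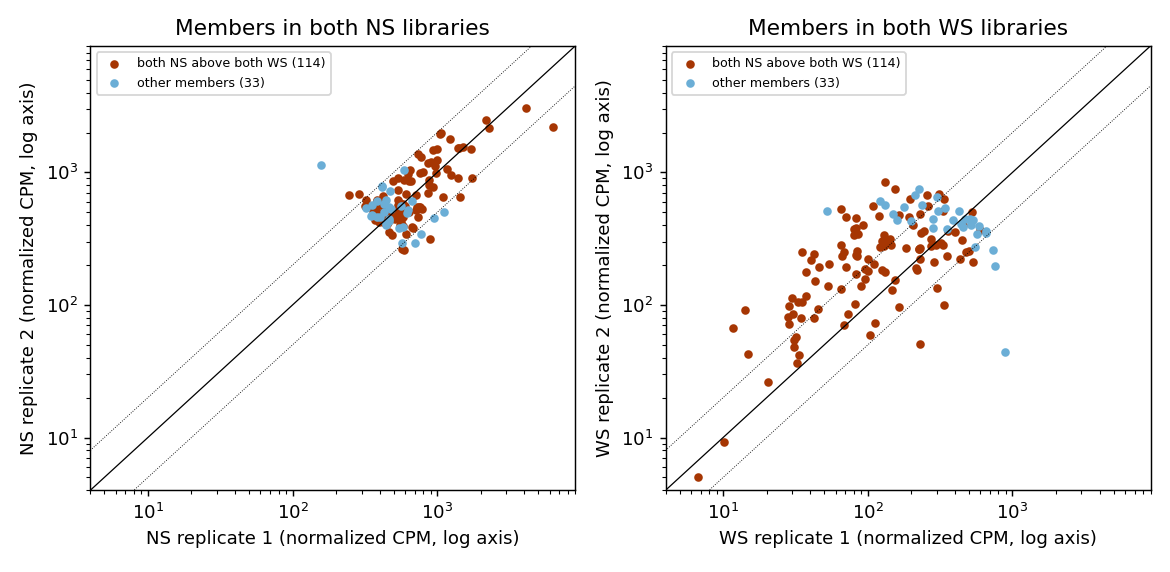
Normalized CPM of 147 members in replicate 1 (x axes) against replicate 2 (y axes), on log scales, for NS on the left and WS on the right. The solid line marks equal values, dotted lines mark 2-fold, and colours separate the 114 members with both NS libraries above both WS libraries from the 33 others. In WS, 104 points lie above the line of equal values and 43 below it.

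The widest gaps between the WS libraries were in both directions. Jcr4S03944.10, a partial model, had 52.1 and 507 CPM in WS, a 9.73-fold difference, beside 414 and 786 CPM in NS. Jcr4S00112.120, given above, differed 8.12-fold, Jcr4S06525.30 7.22-fold (491 and 869 CPM in NS, 34.9 and 252 in WS) and Jcr4S12978.20 6.54-fold (905 and 1193 CPM in NS, 70.5 and 461 in WS). For Jcr4S03944.10, WS replicate 1 was far below NS while WS replicate 2 lay between its NS libraries. None of the 4 passed edgeR's quasi-likelihood test, and among the 22 members with replicate 2 higher by 4-fold or more, 3 passed. Of all tested models, 1.91% were lower by this test.

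In the opposite direction, Jcr4S07412.30 had 892 and 44.2 CPM in WS, with replicate 1 the higher 20.2-fold, while its NS libraries were equal at 561 and 562 CPM. Its log2 fold change was -0.26 with all libraries, -3.62 without WS replicate 1 and 0.64 without WS replicate 2, so its direction depended on which WS library was kept. Jcr4S01952.20 had 228 and 50.9 CPM in WS (374 and 535 in NS), and Jcr4S01514.10 had 335 and 100 CPM in WS (388 and 462 in NS). With Jcr4S01168.30 these were the 4 members with the highest ratio of WS replicate 1 to replicate 2. In NS, a single member differed by 4-fold or more, Jcr4S08555.10, at 157 and 1144 CPM, beside 149 and 484 CPM in WS, and it was chosen for mention after its values were seen.

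Since the members were chosen on all 4 libraries, the rule was also applied to one replicate of each treatment and read in the other. In replicate 1 alone it chose 166 models, of which 110 were members. In replicate 2, 129 of the 166 (77.7%) were lower in WS than in NS, beside 60.7% of the 300 highest models of NS replicate 1 and 47.2% of all tested models, and their median log2 ratio was -0.80 against -1.89 in the replicate that chose them. In replicate 2 alone the rule chose 158 models, of which 111 were members. In replicate 1, 125 of the 158 (79.1%) were lower in WS, beside 67.3% of the 300 highest models of NS replicate 2 and 51.6% of all tested models, with a median log2 ratio of -1.67 against -1.36 where they were chosen. The rule was met in each replicate by the same 78 models, 47.0% and 49.4% of those chosen. The models chosen in a replicate are among the 300 highest of its NS library, so both comparison shares include them. With 1 library of each treatment on either side there is no test of these values.

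**Figure D4:**
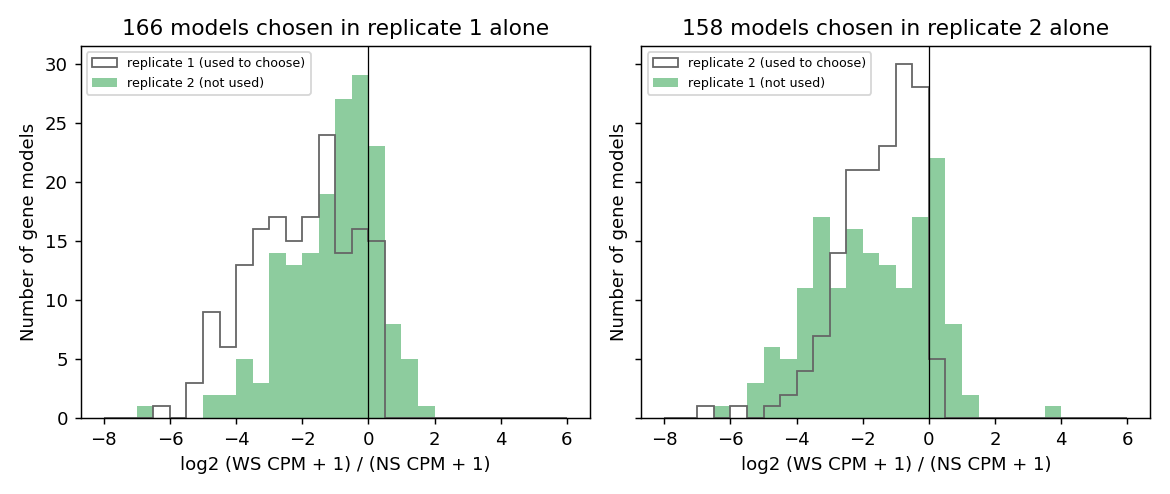
Histograms of the log2 ratio of WS to NS (normalized CPM + 1, x axes) for 166 models chosen by the rule in replicate 1 alone (left) and 158 chosen in replicate 2 alone (right), with the number of gene models on the y axes. Open outlines show the replicate that chose them and filled bars the replicate that was not used, in which the medians were -0.80 and -1.67.

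The deposited tables give gene models by number and not by function. The symbols of the RefSeq table matched 0 members. The study's expression table pairs models with the function of their closest match, and 665 of its rows were used here, so functions of the other members were not analysed here. Of these rows, 4 were members. None of the 4 passed the quasi-likelihood test (1.91% of all tested models were lower). All 4 had both NS libraries above both WS libraries (26.8% of all tested models), an order that the rule favours.

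Jcr4S00004.260, a single-exon model at 110976 to 111818 on the plus strand, was matched to Arabidopsis EXORDIUM like 3. Proteins of the EXORDIUM family are extracellular, and in Arabidopsis the founding member promotes cell expansion and growth. It had 867 and 1178 CPM in NS and 262 and 562 CPM in WS, with a log2 fold change of -1.31 (SE 0.49, edgeR quasi-likelihood adjusted p = 0.179), or -1.99 without WS replicate 2. Jcr4S00006.110, with 15 coding exons at 55463 to 59857 on the minus strand, was matched to endoplasmin (GRP94), an HSP90-like chaperone that folds proteins in the endoplasmic reticulum. It had 376 and 445 CPM in NS and 132 and 176 CPM in WS, with a log2 fold change of -1.41 (SE 0.43, edgeR quasi-likelihood adjusted p = 0.107). Both treatments were tight and did not overlap.

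Jcr4S00012.40, a single-exon model at 25986 to 27467 on the plus strand, was matched to an aspartyl protease, an enzyme class that cleaves proteins, while the annotation notes it as a transposable element. It had 513 and 445 CPM in NS and 84.1 and 253 CPM in WS (log2 fold change -1.51, edgeR quasi-likelihood adjusted p = 0.171). That value was -0.87 without WS replicate 1 and -2.53 without WS replicate 2. Jcr4S00035.120, with 7 coding exons at 74161 to 78423 on the plus strand, was matched to IQ-domain 31 of Arabidopsis, a protein of a family that binds calmodulin, the calcium sensor. It had 539 and 467 CPM in NS and 143 and 314 CPM in WS (log2 fold change -1.14, edgeR quasi-likelihood adjusted p = 0.234), and -1.84 without WS replicate 2. In both models WS replicate 1 was the lowest library. As a related pathway, the same 665 rows hold 10 cell wall models, too few to say whether members are rare among them, and 0 were members. Of these 10, 0 were lower by edgeR's quasi-likelihood test (1.91% of all tested models), 4 were lower at an unadjusted p under 0.05 (10.5% of all tested models) and 1 was lower by DESeq2 (5.08% of all tested models). Their summed level was 2887 and 2033 CPM in NS and 1586 and 2288 CPM in WS, so the treatments overlapped, and their median log2 fold change was -1.08. These 10 do not stand for all cell wall genes. With its own test over all genes, the study reported cell wall organization or biogenesis as enriched among the down-regulated ones.

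Gene structure was not used by the rule. The members had a median coding length of 1437 bp, longer than the 1095 bp of the models abundant in both treatments, the 1152 bp of the WS list only and the 1047 bp of all tested models. A coding length of at least 2000 bp was found in 29.9% of members, 14.6% of the models abundant in both, 23.5% of the WS list only and 16.4% of all tested models. Below 600 bp were 14.3% of members, 21.2% of the models abundant in both, 17.4% of the WS list only and 25.1% of all tested models. The median number of coding exons was 4 in the members and in all tested models. Single-exon models made up 10.2% of members, 13.2% of the models abundant in both, 17.4% of the WS list only and 16.2% of all tested models. For models of 10 or more exons these shares were 22.4%, 18.5%, 30.2% and 19.9%, so the WS list only stood above the members. Notes that mark a model as short, partial or a transposable element were on 9 members (6.12%). Notes of any kind were on 13.9% of the models abundant in both, 14.8% of the WS list only and 20.7% of all tested models. These shares are descriptions without a test. CPM is not divided by length, so a longer transcript yields more reads, and when the same rule was applied to CPM per kb of coding length it chose 139 models, 58 of them members.

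**Figure D5:**
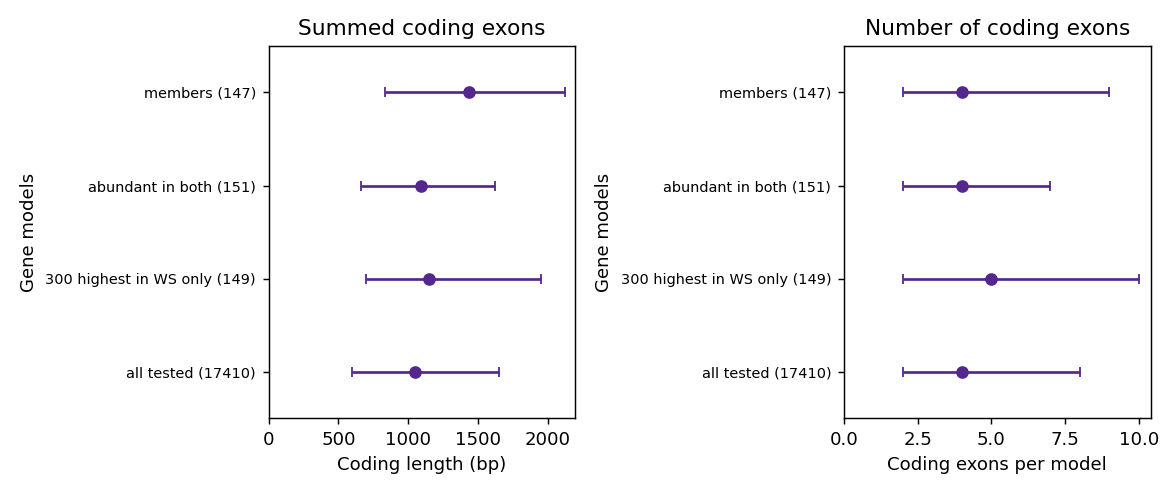
Coding length in bp (left) and number of coding exons (right) of 147 members, 151 models abundant in both treatments, 149 of the WS list only and 17410 tested models. Points are medians and bars run from the first to the third quartile, with a median coding length of 1437 bp in the members and 1047 bp in all tested models.

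The members with the most exons differed among themselves. Jcr4S02200.30, with 31 coding exons over 26764 to 39836 on the minus strand, had 564 and 420 CPM in NS and 104 and 58.9 CPM in WS, a log2 fold change of -2.59 (SE 0.49, edgeR quasi-likelihood adjusted p = 0.0197). Jcr4S05562.10, with 25 coding exons, had 399 and 459 CPM in NS and 305 and 508 CPM in WS, so its treatments overlapped. Together with Jcr4S02146.10 these had the most exons of the members, and 1 of the 3 passed the test (1.91% of all tested models were lower).

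The members were spread over 146 scaffolds, with 68 on the plus and 79 on the minus strand. Only scaffold Jcr4S00151 held 2 of them, Jcr4S00151.70 (37766 to 40492, minus strand) and Jcr4S00151.110 (56076 to 59069, plus strand), which are not next to each other. No member overlapped a neighbouring model, and 2 had a neighbour within 500 bp. Of 223 models that neighbour a member, 147 were tested, with a median log2 fold change of -0.24, and 0 were members. By edgeR's quasi-likelihood test 2 (1.36%) were lower and 3 (2.04%) higher, near the 1.91% and 2.45% of all tested models. The 2 lower ones were Jcr4S03289.50 and Jcr4S00377.100, and the 3 higher ones were Jcr4S00117.60, Jcr4S00685.60 and Jcr4S03363.50. Of these, Jcr4S03363.50 lies nearer to its member than Jcr4S00117.60 does and had a slightly larger log2 fold change. The 2 places described next were chosen after their values were seen and are examples only. Jcr4S06525.30 lies between Jcr4S06525.20 (2891 bp before it) and Jcr4S06525.40 (1750 bp after it), all on the plus strand, and the neighbours had log2 fold changes of -2.30 and -2.22 beside -2.25 for the member, none of them past the test. The value of the member was -1.39 without WS replicate 1 and -4.32 without WS replicate 2. Jcr4S00117.50 lies 1709 bp before Jcr4S00117.60 on the same strand, and that neighbour went the other way, from a mean of 50.0 CPM in NS to 669 CPM in WS (log2 fold change 3.76), and was called higher in edgeR's quasi-likelihood test.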

How the data were processed

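Per the study's methods, the authors trimmed Ion Proton reads, aligned them with TMAP (Jatropha genome, release 4.5) and obtained read numbers per model from HTSeq. The authors deposited raw counts of 57437 models. The authors also deposited a normalized signal, CPM over TMM-scaled library sizes, for 17410 models, together with their own log2 fold changes, likelihood ratios, p-values and false discovery rates, all left unused. HTSeq and edgeR also appear in the submitters' processing notes. Near-identical copies could share reads, because the treatment of reads with several matches, the use of strand and the software versions are not given in the sources used here. Every tested model reached at least 1.15 CPM over the raw total in its second highest library, and no other model exceeded 0.982.

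The rule was applied to the deposited CPM, on which no ties fell at the 300th place. Raw counts were fitted with edgeR 4.0.16 in R 4.3.3 (TMM, glmQLFit, glmQLFTest, two-sided, no covariate, Benjamini-Hochberg over 17410 models). The F statistic gave the standard errors. After these fits the same procedure was run on simulated counts, and its outcome is not given here. DESeq2 1.42.0 and limma 3.58.1 served as alternatives, and Python 3.11.15 with pandas 2.3.3 for summaries. Log2 ratios between libraries used CPM + 1. The raw totals were 1204502 to 6110438, and NS replicate 2 was the shallowest. The members nevertheless had fewer reads in WS, with medians of 553 and 650 in WS replicates 1 and 2 and 725 in NS replicate 2. With 2 libraries against 2, an exact permutation test of one gene cannot go below 0.333, so none was used. The edgeR p-values set the difference between treatments against a dispersion estimated with information from all tested models.

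The members and lists were chosen with earlier results of these data known. Models were named if they were the 15 highest in NS, had the 8 lowest or 5 highest WS to NS ratios, lay nearest to either limit (3 inside, 2 outside), were described in the study's tables, adjoined another member (0 models), had the most exons (3), or had the 4 highest or lowest ratios between the WS libraries. Exceptions are stated where they occur. No sequence of a member was in the files used here, so none is shown.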

Additional observations from a re-analysis of the deposited data

How the results depend on the processing

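The number of members lower in WS depended on the test. It was 39 by edgeR's quasi-likelihood test, 60 by DESeq2 and 61 by limma voom (57 by edgeR's likelihood ratio test), and all 39 were also called by these 3. It was 76 with no filter on low counts, 24 at equal depth (all among the 39) and 76 with the replicate number as a block. In these 3 fits 4.02%, 0.845% and 5.07% of all tested models were lower (2.51% by limma voom). It was 30 to 46 under the other scalings and filters, beside 1.61% to 2.49% of all tested models. The highest count, 46, and the highest of these shares, 2.49%, both came with total library sizes. Nothing in the labels says that replicate numbers pair the libraries, and the NS and WS replicate deviations correlated at only 0.087 over all tested models. Leaving out 1 library gave 0 to 100 calls: 0 without NS replicate 1, 0 without NS replicate 2, 63 without WS replicate 1 and 100 without WS replicate 2. In these fits the lone library is assumed to vary like the other treatment.

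The median log2 fold change of -1.51 ranged from -1.19 to -2.22 over the fits that left out 1 library (-2.22 without WS replicate 2) and moved less than the spread between libraries otherwise. With total library sizes the median of all tested models shifted from 0.01 to -0.22, and that of the members was -1.73. The rule gave 227 members with the 500 highest models, of which 101 were among the 147. With the 200 highest it gave 115, of which 78 were among the 147. Without the 10 highest members, the NS share of reads was 9.02%. The median log2 ratio of WS replicate 1 to WS replicate 2 was -0.90 with total library sizes and -1.01 for members above the median NS mean. The check between replicates gave -0.80 with models chosen in replicate 1 and -1.67 with models chosen in replicate 2. At an equal CPM, depth limits NS replicate 2 most, where 1 read was worth 0.756 CPM.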
